A study of Homo sapiens with 9 samples.

Results

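MYOF, GOLGA7B and SERINC2 encode proteins that sit in or at cellular membranes. They are described here across 9 libraries of total RNA from Caki-1, an established line from a human clear cell renal carcinoma. The 3 genes were taken by symbol, as single transcripts and as sums per Gene ID, and make up 8 of the 20909 transcripts and 3 of the 6819 genes in the deposited table. They were chosen by their measured differences between SH1, SH3 and control in these same libraries. Those differences are therefore given as a description, and no call among them supports anything further. MYOF (Gene ID 26509, chromosome 10) has 4 listed transcripts, GOLGA7B (Gene ID 401647, chromosome 10) has 1 and SERINC2 (Gene ID 347735, chromosome 1) has 3.

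The study asked what TAF1D, a subunit of the factor that recruits RNA polymerase I to ribosomal RNA genes, does in this carcinoma. SH1 and SH3 are Caki-1 cells in which TAF1D was knocked down by short hairpin RNA, and the control, titled NC, has the genotype WT. Each of the 3 groups has 3 libraries. The labels say neither what SH1, SH3 and NC stand for, nor which vector was used, nor whether the libraries of a group come from separate cultures, so p-values measure the spread between these samples, which may be technical.

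The listed transcripts hold 1358215 to 1596467 estimated counts per library and 4.20% to 5.18% of its TPM. The table is a selection: every listed transcript differs by at least 2-fold in estimated counts between SH1 1 and control 1. In each of the 35 remaining library pairs the share that differs so is 51.5% to 64.9%. Values are therefore given for each library. TAF1D, the knocked-down gene, was not analysed here. Of 15 markers of renal tubule and clear cell carcinoma only KRT19 and PAX8 are listed, with a summed level of 21.98 to 26.76 FPKM in SH1, 63.17 to 76.53 FPKM in SH3 and 72.37 to 92.56 FPKM in control. KRT19, an epithelial keratin, averaged 18.2 ± 3.15 FPKM in SH1, 62.5 ± 3.55 FPKM in SH3 and 80.7 ± 9.81 FPKM in control (SD, n = 3). PAX8, a renal lineage transcription factor, had its higher means in the knockdowns, at 5.42 ± 1.13 FPKM in SH1, 5.30 ± 4.05 FPKM in SH3 and 2.26 ± 0.820 FPKM in control, and did not pass the edgeR test in any comparison. Of 5 endothelial markers 0 are listed. The 1 of 4 fibroblast markers listed, PDGFRB, lay between 0.16 and 0.34 FPKM in all 9 libraries. The 1 of 4 blood markers listed, CD68, had 13.15 to 17.78 FPKM in SH1, 12.74 to 14.07 FPKM in SH3 and 7.84 to 12.46 FPKM in control. The part of these marker differences in the results below was not tested.

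Myoferlin, the product of MYOF, belongs to the ferlins, large calcium-binding proteins anchored in the plasma membrane and in vesicles. In mouse muscle it takes part in myoblast fusion and membrane repair, and in carcinoma cells it has been linked to the turnover of growth factor receptors. GOLGA7B is a relative of GOLGA7, an accessory protein of the ZDHHC enzymes that attach palmitate to membrane proteins, and it has been described as a partner of ZDHHC5. SERINC2 belongs to the serine incorporators, a family of proteins that cross the membrane many times and are named for a proposed role in bringing serine into phosphatidylserine and sphingolipids.

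GOLGA7B showed the largest ratio of SH1 to control means among the member transcripts. Its 1 transcript, NM_001010917, is also the only one in the RefSeq table, and its annotated start lies in chr10:97849593-97849892 on the plus strand of GRCh38.p14. It had 6.99, 8.18 and 10.68 FPKM in SH1, 0.29, 0.29 and 0.27 FPKM in SH3, and 0.17, 0.15 and 0.21 FPKM in control. FPKM counts fragments per kilobase of transcript, scaled to the mapped fragments of the library. GOLGA7B was thus at a low level in SH3 and control and far higher in every SH1 library. In these bulk libraries a larger share of cells with the transcript and more of it per cell cannot be told apart. The counts behind these levels were 923.24, 1089.15 and 1458.28 in SH1, 39, 39 and 36.99 in SH3, and 23, 20 and 27.71 in control.

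The mean of GOLGA7B in SH1 was 8.62 ± 1.88 FPKM, 48.8 times the control mean of 0.177 ± 0.0306 FPKM (SD, n = 3 each). The log2 fold change was 5.50 ± 0.49 (SE) in an edgeR quasi-likelihood fit of all 9 libraries. SH3, with a mean of 0.283 ± 0.0115 FPKM, lay 1.60-fold above control, and its 3 libraries did not overlap the 3 controls. That small difference had a log2 fold change of 0.64 ± 0.41 and did not pass the test. SH3 against SH1 gave -4.86 ± 0.47, and no SH3 library came near an SH1 library.

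**Figure D1:**
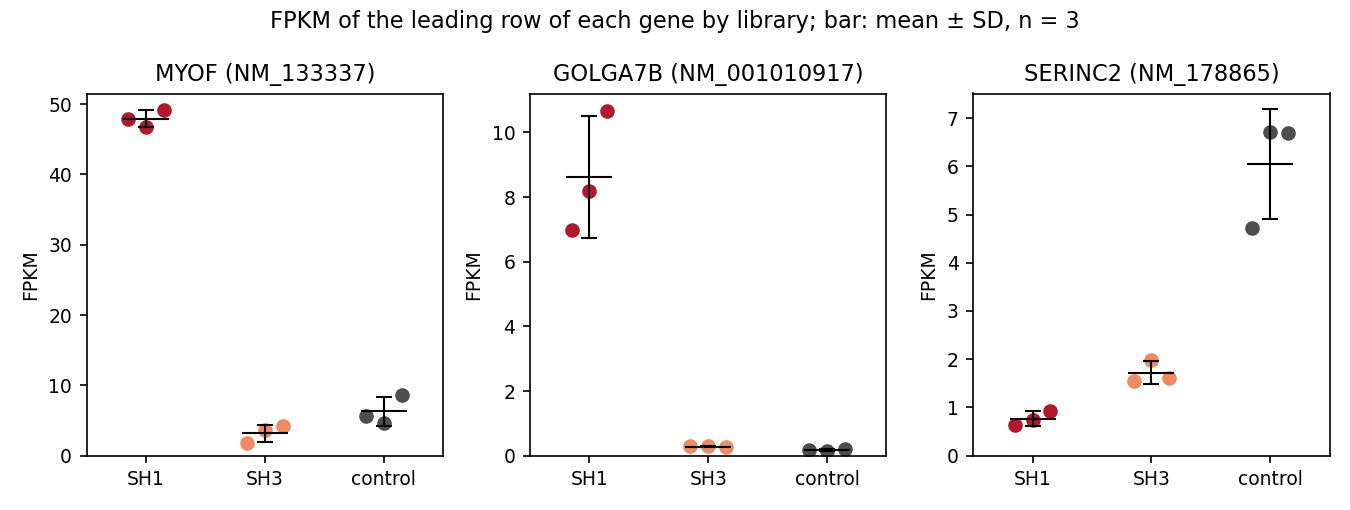
FPKM (y axes, linear, each with its own scale) of the listed transcript of the highest mean of MYOF, GOLGA7B and SERINC2 in SH1, SH3 and control. Points are libraries and bars are means ± SD of 3 libraries: MYOF NM_133337 and GOLGA7B lie high in SH1 alone, whereas SERINC2 NM_178865 is lowest in SH1, between in SH3 and highest in control.

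The leading listed transcript of MYOF, the curated variant NM_133337, was also high in SH1. RefSeq lists 10 MYOF transcripts, of which 6 are not in the table and were not analysed here. Among them is NM_013451, the longer curated variant. In the GENCODE annotation of GRCh38 the pair differ by exon 17 of the 54 exons of NM_013451, at chr10:93392917-93392955 on the minus strand, which NM_133337 skips. The exon has 39 bases, a multiple of 3, and is shown in capitals between 24 bases of each neighbouring exon, because it is what separates the listed variant from the unlisted one in exon structure:
NM_013451: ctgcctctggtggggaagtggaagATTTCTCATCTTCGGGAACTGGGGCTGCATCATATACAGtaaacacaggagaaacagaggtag
NM_133337: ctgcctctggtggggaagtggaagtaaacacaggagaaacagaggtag
A read that touches neither this exon nor its junctions cannot be told apart between the variants, so the count of NM_133337 is an estimate of how shared reads divide.

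NM_133337 had 47.83, 46.72 and 49.15 FPKM in SH1, 1.86, 3.64 and 4.15 FPKM in SH3, and 5.64, 4.61 and 8.66 FPKM in control. All 3 SH1 libraries lay above every control and all 3 SH3 libraries lay below every control. The SH1 values span a narrow range, and SH1 1 lies between SH1 2 and SH1 3, just as control 1 lies between the other controls. The mean in SH1 was 47.9 ± 1.22 FPKM, 7.60 times the control mean of 6.30 ± 2.10 FPKM, and the log2 fold change was 2.84 ± 0.33 (SE). Without SH1 1 and control 1, the pair on which the table was selected, it was 2.77, with an adjusted p of 0.215 in edgeR. The mean in SH3 was 3.22 ± 1.20 FPKM, with a log2 fold change of -0.998 ± 0.31 against control that did not pass the test.

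The other 3 listed MYOF transcripts are predicted models, and each had a pattern of its own. XM_005269693 was the leading listed MYOF transcript of the controls, with 4.97, 8.99 and 8.40 FPKM in SH1, 7.60, 5.30 and 7.68 FPKM in SH3, and 12.25, 8.93 and 12.25 FPKM in control. SH3 lay below the controls, and SH1 overlapped them by 1 library, SH1 2. Its log2 fold changes against control were -0.67 ± 0.30 in SH1 and -0.73 ± 0.30 in SH3, and neither passed the test.

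XM_005269694 stayed low throughout, with 0.75, 1.55 and 1.45 FPKM in SH1, 0.06, 0.08 and 0.11 FPKM in SH3, and 0.23, 0.13 and 0.36 FPKM in control. Its order was that of NM_133337, SH1 above and SH3 below every control, at log2 fold changes against control of 2.29 ± 1.07 in SH1 and -1.49 ± 1.05 in SH3. XM_017016068 had 1.73, 2.35 and 5.57 FPKM in SH1, 3.4, 14.68 and 7.84 FPKM in SH3, and 0.02, 1.13 and 0.04 FPKM in control. Here both knockdowns lay above the controls, SH3 overlapped SH1, and libraries of the same group differed by several fold or more. The log2 fold changes against control, 2.91 ± 1.42 in SH1 and 4.39 ± 1.52 in SH3, did not pass the test. They turn on control 2, the one control well above 0: without it they were 6.97 in SH1 and 8.45 in SH3, and still did not pass.

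The estimated make-up of the listed MYOF signal therefore differed between the groups. The shares leave out NM_013451 and the other unlisted transcripts, and they were not tested. NM_133337 took 80.3% ± 5.47 of the listed MYOF FPKM in SH1, 16.9% ± 3.56 in SH3 and 34.3% ± 5.50 in control (SD, n = 3). XM_005269693 took 12.4% ± 3.10 in SH1, 40.0% ± 18.3 in SH3 and 61.8% ± 5.18 in control. XM_017016068 took 5.23% ± 2.97 in SH1, 42.6% ± 18.0 in SH3 and 2.64% ± 4.32 in control. In SH3 the last of these was thus about as large a part as XM_005269693, with a wide spread between libraries.

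Summed over its listed transcripts, MYOF had 55.28, 59.61 and 64.57 FPKM in SH1, 12.92, 23.70 and 19.78 FPKM in SH3, and 18.14, 14.80 and 21.31 FPKM in control. The SH1 libraries lay well above all others, and SH3 and control overlapped. The SH1 mean of 59.8 ± 4.65 FPKM was 3.31 times the control mean of 18.1 ± 3.26 FPKM, with a log2 fold change of 1.54 ± 0.23 (SE). SH3, at 18.8 ± 5.46 FPKM, was 1.04 times control, with a log2 fold change of -0.05 ± 0.22 and a sign that turned under 4 of 19 alternatives. These sums leave out NM_013451 and are not the whole output of the gene.

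**Figure D2:**
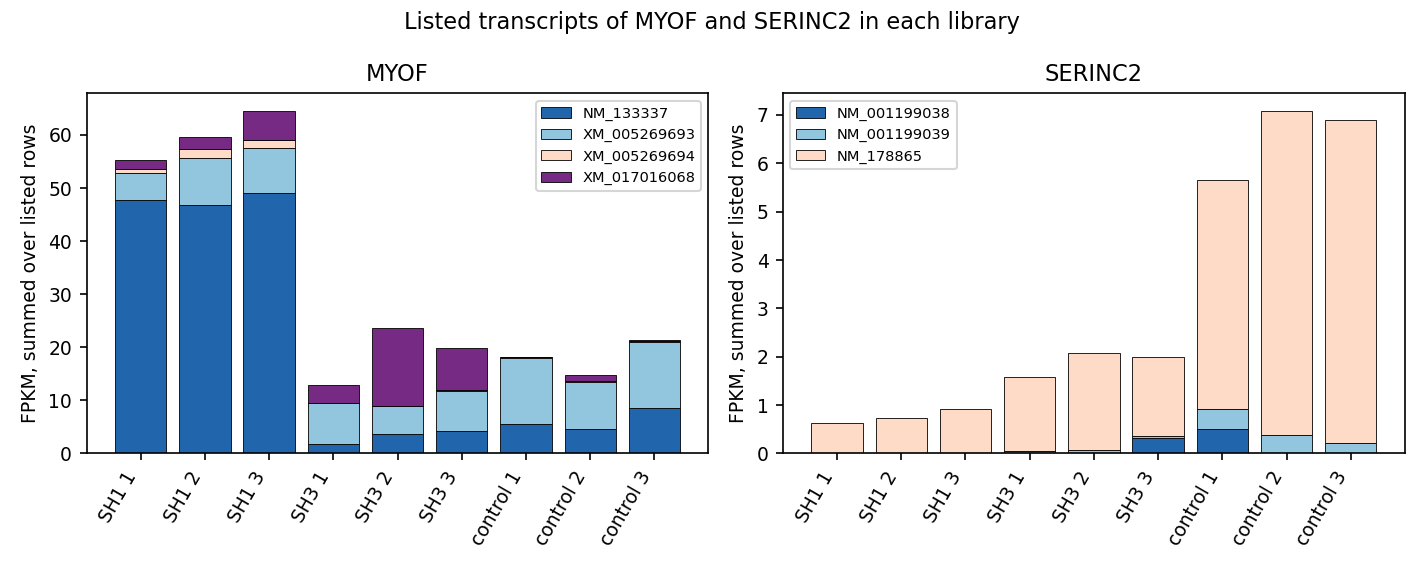
FPKM (y axes, linear) of the listed transcripts of MYOF and SERINC2, stacked for each of the 9 libraries, SH1, SH3 and control from left to right. In MYOF the bars of SH1 consist mainly of NM_133337, those of SH3 hold a large part of XM_017016068, and those of control consist mainly of XM_005269693; in SERINC2 NM_178865 fills most of every bar.

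SERINC2 ran the other way. Its 3 listed transcripts, of 5 in RefSeq, start in different exons and meet at the exon chr1:31423693-31423854 on the plus strand of GRCh38. The coding start of each is shown from its ATG to the first 15 bases of that shared exon, with the part of its own in capitals, because these leading stretches are what tells the listed transcripts apart at the start of the protein:
NM_178865: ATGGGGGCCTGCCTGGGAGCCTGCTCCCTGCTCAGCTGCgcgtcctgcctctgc
NM_001199039: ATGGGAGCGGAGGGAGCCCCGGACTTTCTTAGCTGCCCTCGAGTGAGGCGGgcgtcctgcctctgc
NM_001199038: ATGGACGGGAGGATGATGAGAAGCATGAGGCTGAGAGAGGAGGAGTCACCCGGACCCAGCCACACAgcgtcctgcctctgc
The capitals lie at chr1:31413266-31413304 in NM_178865 (39 bases), at chr1:31414014-31414064 in NM_001199039 (51 bases) and, spliced, within chr1:31409838-31410435 in NM_001199038 (66 bases).

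NM_178865 had 0.64, 0.74 and 0.93 FPKM in SH1, 1.54, 1.99 and 1.62 FPKM in SH3, and 4.73, 6.71 and 6.69 FPKM in control. The groups formed 3 separate steps, with SH1 lowest, SH3 between and control highest. Counts were modest, 23, 27 and 34.45 in SH1, 56.10, 73.28 and 60.05 in SH3, and 171.23, 247.73 and 238.15 in control. The means were 0.770 ± 0.147 FPKM in SH1, 1.72 ± 0.240 FPKM in SH3 and 6.04 ± 1.14 FPKM in control (SD, n = 3). Its log2 fold changes against control were -3.07 ± 0.89 in SH1 and -1.85 ± 0.85 in SH3 and SH3 against SH1 gave 1.22 ± 0.84. None of these passed the edgeR test for the single transcript.

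NM_001199039 was listed at 0 in all 3 SH1 libraries, at 0.05, 0.08 and 0.06 FPKM in SH3, and at 0.41, 0.38 and 0.21 FPKM in control. The same 3 steps appear at a far lower level. With a floor of 3 counts over the SH1 group and the counts of the other group taken as exact, SH1 was at least 19.0-fold lower than control. On the same terms it was at least 3.35-fold lower than SH3, where the counts were only 2.48, 4.17 and 3.11. None of the 3 comparisons of this transcript passed the edgeR test. The adjusted p was 0.515 in SH1 against control and 0.777 in SH3 against SH1. NM_001199038 was listed at 0 in every library except SH3 3 (0.31 FPKM) and control 1 (0.51 FPKM) and was not tested.

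Summed, SERINC2 had 0.64, 0.74 and 0.93 FPKM in SH1, 1.59, 2.07 and 1.99 FPKM in SH3, and 5.65, 7.09 and 6.90 FPKM in control. The log2 fold change of the summed counts was -3.29 ± 0.36 (SE) in SH1 against control, -1.90 ± 0.34 in SH3 against control, and 1.39 ± 0.34 in SH3 against SH1. The steps of the leading transcript thus carried over to the sum, where the SE was less than that of the single transcript. GOLGA7B, whose 1 transcript is its sum, also had a smaller SE in the fit of sums (0.277 against 0.489 in SH1 against control). A smaller SE on sums can thus arise without adding transcripts, and for SERINC2 it is not read as gained evidence.

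Of the 8 member transcripts 7 passed the filter on low counts, out of 17495 transcripts tested. In SH1 against control edgeR called 2 of the 7, GOLGA7B NM_001010917 and MYOF NM_133337, both higher, where 0.131% of all tested transcripts were called in either direction and 0.0743% higher. DESeq2 called these and SERINC2 NM_178865, which was lower, where it called 2.98% of all, and limma-trend called the same 2 as edgeR, where it called 0.223% of all. In SH3 against control edgeR called 0 of the 7, where 0.0286% of all were called. At an unadjusted p under 0.05 there were 3 (NM_133337, XM_005269693 and XM_017016068), where 5.87% of all had one, and DESeq2 and limma-trend also called 0, where they called 2.2% and 0.0857% of all. In SH3 against SH1 edgeR called the 2 transcripts called in SH1 against control, both lower in SH3, where 0.0972% of all were called and 0.0343% called lower. DESeq2 called these and XM_005269694, where it called 2.36% of all, and limma-trend called 2, where it called 0.234%. The comparisons share libraries, so their calls do not repeat each other independently.

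On sums per Gene ID edgeR called 3 of 3 genes in SH1 against control, MYOF and GOLGA7B higher and SERINC2 lower, where 2.14% of the 6398 tested sums were called, 1.06% higher and 1.08% lower. DESeq2 and limma-trend called the same 3, where they called 7.0% and 2.55% of all. edgeR called 0 of 3 in SH3 against control, where 0.406% were called. Of these, 2 had an unadjusted p under 0.05 (GOLGA7B and SERINC2), where 8.39% of all sums had one, and DESeq2 and limma-trend each called 1, SERINC2, where they called 3.85% and 0.875% of all. In SH3 against SH1 edgeR called MYOF and GOLGA7B, both lower in SH3, where 1.36% were called and 0.578% called lower. limma-trend called 2 of the 3, where it called 2.14% of all, and DESeq2 called all 3, SERINC2 being higher in SH3, where it called 5.89%. The median log2 fold change of all tested sums was -0.03 in SH1 and in SH3, each against control.

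Separation of libraries was commoner than a call. In SH1 against control the FPKM of the groups did not overlap in 6 of the 7 tested transcripts, 4 higher and 2 lower, where 9.63% of all tested transcripts were higher and 6.45% lower without overlap. In SH3 against control it did not overlap in 7 of 7, 2 higher and 5 lower, where 7.26% were higher and 5.08% lower. In SH3 against SH1 it did not overlap in 5 of 7, 2 higher and 3 lower, where 6.68% were higher and 7.84% lower. The MYOF transcripts stood on both sides: between SH1 1 and control 1, 3 were higher and 1 lower in SH1 1. Transcripts on both sides are the rule in this table, found in 83.03% of the 4307 genes with at least 2 listed transcripts and in 95.5% of the 576 genes with 4. The 3 SERINC2 transcripts were all lower in SH1 1, as in 5.28% of the 909 genes with 3 listed.

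**Figure D3:**
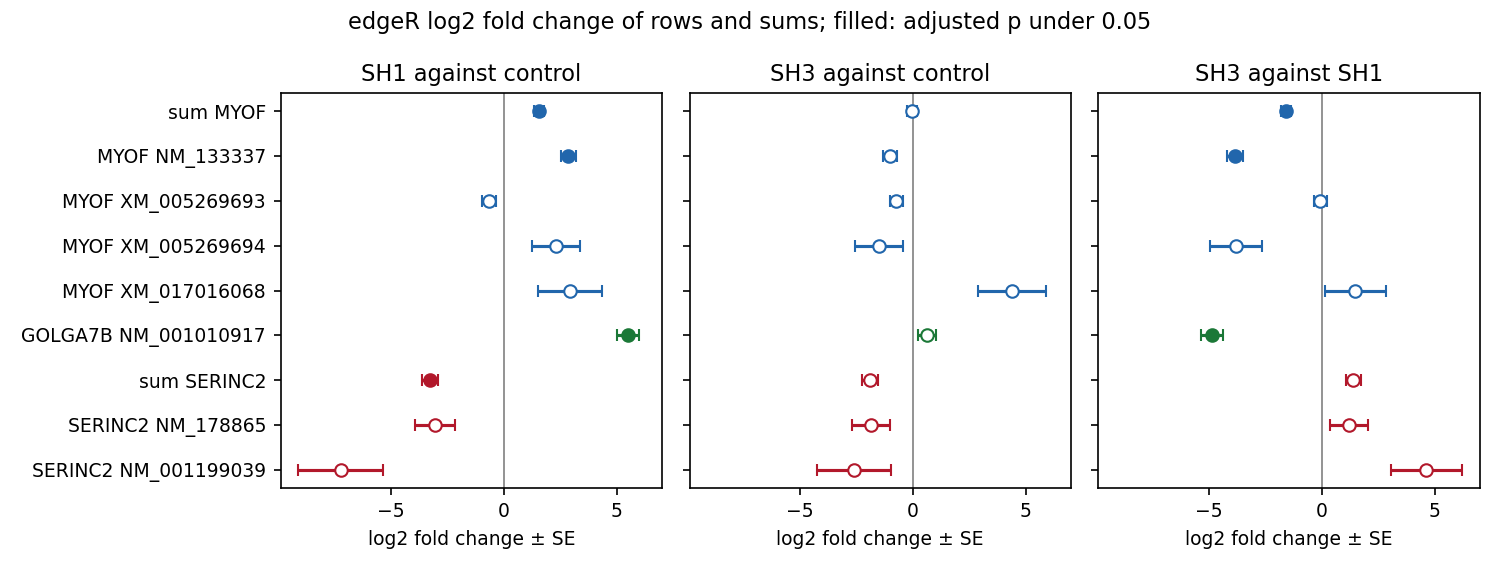
Log2 fold change ± SE (x axes) from edgeR for the tested transcripts and the sums, in SH1 against control, SH3 against control and SH3 against SH1. Filled points have an adjusted p under 0.05: the GOLGA7B and NM_133337 points are far to the right in SH1 against control (5.50 and 2.84) and far to the left in SH3 against SH1 (-4.86 and -3.83), and no point is filled in SH3 against control.

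A search over the other transcripts with a mean of at least 1 FPKM named those whose pattern across the 9 libraries was most like each leading transcript. Likeness was the root mean square difference of log2(FPKM + 1) after centring each transcript on its own mean, so a smaller value is closer. For GOLGA7B the closest of 4942 transcripts was C3, a complement component, at 0.19, with 90.3 ± 15.04 FPKM in SH1, 9.84 ± 0.409 FPKM in SH3 and 11.7 ± 2.29 FPKM in control. The added 1 flattens low levels such as the 0.177 FPKM of GOLGA7B in control. The small value therefore does not mean a like ratio of SH1 to control, which was larger for GOLGA7B. INAVA followed at 0.33, with 5.74 ± 0.354 FPKM in SH1, 0.103 ± 0.105 FPKM in SH3 and 0.293 ± 0.290 FPKM in control, and then SEC31A NM_016211, from a gene of the vesicle coat of the endoplasmic reticulum, at 0.39. For MYOF NM_133337 C3 was also the closest of 4940, at 0.39, followed by SEC31A NM_016211 at 0.47 and SIRPB1, a receptor of the immunoglobulin superfamily, at 0.48. SIRPB1 had 7.33 ± 0.561 FPKM in SH1, 0.253 ± 0.260 FPKM in SH3 and 1.14 ± 0.703 FPKM in control.

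For SERINC2 NM_178865 the closest was TGFBI, a secreted matrix protein induced by TGF-beta, at 0.19, with 2.17 ± 0.265 FPKM in SH1, 4.32 ± 0.304 FPKM in SH3 and 9.65 ± 0.741 FPKM in control. RGS4, a regulator of G protein signalling, lay at 0.26, with 1.03 ± 0.268 FPKM in SH1, 2.48 ± 0.117 FPKM in SH3 and 7.63 ± 1.19 FPKM in control. ADAMTS1, a secreted metalloprotease, lay at 0.30, with 9.17 ± 0.247 FPKM in SH1, 21.8 ± 1.95 FPKM in SH3 and 43.8 ± 1.15 FPKM in control. These transcripts share with SERINC2 the order SH1, SH3, control from low to high. Their levels differ, ADAMTS1 lying far above SERINC2 in every group.

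The genes around each member in function were followed as lists. Membrane repair and ferlin partners (annexins, caveolae, calpains and ESCRT proteins) had 16 of 38 genes in the table, with 22 transcripts and 15 sums tested. Dysferlin (DYSF) is listed, at 0 in SH1, 0.21 ± 0.364 FPKM in SH3 and 0.0433 ± 0.0751 FPKM in control. It did not pass the filter on low counts and was not tested. edgeR called 0 transcripts and 0 sums in all 3 comparisons. At an unadjusted p under 0.05 there were 2, 1 and 1 transcripts and 2, 1 and 2 sums in SH1 against control, SH3 against control and SH3 against SH1. In SH3 against control 5.87% of all tested transcripts and 8.39% of all tested sums had such a p. That share was not taken for the other comparisons. Counts at this threshold, here and for the lists and neighbours below, are therefore not read as results about the genes. The leading transcript, CAV2 NM_001233 of caveolin 2, had 9.45 ± 2.82 FPKM in SH1, 20.0 ± 6.02 FPKM in SH3 and 21.9 ± 8.32 FPKM in control, a log2 fold change of -1.31 ± 0.38 in SH1 against control. PDCD6 NM_001267556, of a calcium sensor of membrane repair, had 9.28 ± 6.31 FPKM in SH1, 10.9 ± 1.56 FPKM in SH3 and 9.03 ± 1.89 FPKM in control. DESeq2 called the sums of CAV2 (lower) and AHNAK2 (higher) in SH1 against control, AHNAK2 in SH3 against control and CAV2 (higher in SH3) in SH3 against SH1, whereas limma-trend called 0. For single transcripts DESeq2 called AHNAK2 NM_138420 alone, in SH1 and in SH3 against control, at 1.28 ± 1.39 FPKM in SH1 and 0.240 ± 0.382 FPKM in SH3, and listed at 0 in control. Over all it tested, DESeq2 called 7.0%, 3.85% and 5.89% of sums and 2.98%, 2.2% and 2.36% of transcripts. The order is SH1 against control, SH3 against control and SH3 against SH1. DESeq2 calls in this list, and for the lists and neighbours below, are likewise not read as results about the genes.

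The palmitoylation list, the enzymes that add or remove palmitate together with GOLGA7, had 19 of 32 genes in the table. GOLGA7, the closest relative of GOLGA7B, and ZDHHC5, its described partner, are both listed. edgeR and limma-trend called 0 of the 43 transcripts and 0 of the 18 sums tested in all 3 comparisons. At an unadjusted p under 0.05 there were 4, 1 and 2 transcripts and 1, 0 and 1 sums in SH1 against control, SH3 against control and SH3 against SH1. ZDHHC16 NM_198046, of an enzyme that adds palmitate, had 5.36 ± 4.93 FPKM in SH1, 8.40 ± 2.07 FPKM in SH3 and 7.06 ± 1.22 FPKM in control. LYPLA1 XM_017012956, of an enzyme that removes it, had 0.720 ± 0.960 FPKM in SH1, 9.15 ± 3.4 FPKM in SH3 and 2.38 ± 3.39 FPKM in control. On sums DESeq2 called ZDHHC14 lower in SH1 than in control and higher in SH3 than in SH1, and called ZDHHC4 lower in SH3 than in control and than in SH1. Its calls for single transcripts were ZDHHC4 NM_001371296 in the same comparisons and ZDHHC21 NM_001354129, higher in SH3 than in control. ZDHHC14 and ZDHHC4 are weakly read, at 0.0167 ± 0.0289, 0.417 ± 0.167 and 0.527 ± 0.397 FPKM for ZDHHC14 and 0.557 ± 0.560, 0 and 1.27 ± 2.21 FPKM for ZDHHC4 in SH1, SH3 and control.

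Of the SERINC family and the enzymes that build lipids from serine, 12 of 26 genes are in the table, with SERINC5 the only other SERINC. SERINC5, at 0.143 ± 0.248 FPKM in SH1, 0.25 ± 0.433 FPKM in SH3 and 0 in control, did not pass the filter on low counts and was not tested. edgeR called 0 of 28 transcripts and 0 of 10 sums in all 3 comparisons. At an unadjusted p under 0.05 there were 4, 1 and 3 transcripts and 1, 0 and 1 sums in SH1 against control, SH3 against control and SH3 against SH1. DESeq2 and limma-trend called 0 sums. PISD, which turns phosphatidylserine into phosphatidylethanolamine, led the list. Its transcript NM_001326417 had 5.52 ± 3.90 FPKM in SH1, 0.970 ± 1.18 FPKM in SH3 and 5.56 ± 2.66 FPKM in control, and NM_178022 had 3.12 ± 0.940 FPKM in SH1, 2.36 ± 0.717 FPKM in SH3 and 2.06 ± 1.43 FPKM in control. For transcripts, DESeq2 called 3 lower in SH1 than in control and higher in SH3 than in SH1, namely SGMS2 NM_001375908 and a pair of copies of PTDSS2, all listed at 0 in SH1. The copies had the same values, 1.62 ± 0.915 FPKM in SH3 and 1.46 ± 0.709 FPKM in control, and are not separate measurements. Summed PTDSS2 had an edgeR log2 fold change of -0.65 ± 0.50 in SH1 against control. SGMS2 NM_001375908 was weakly read, at 0.283 ± 0.263 FPKM in SH3 and 0.217 ± 0.375 FPKM in control.

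The desmosome list, added as a set of junctional membrane genes, had 4 of 13 genes in the table (JUP, PKP4, DSP and DSC2). edgeR and limma-trend called 0 of 16 transcripts and 0 of 4 sums in all 3 comparisons. At an unadjusted p under 0.05 there were 2, 0 and 2 transcripts and 1, 1 and 2 sums in SH1 against control, SH3 against control and SH3 against SH1. JUP, plakoglobin, led the list. Its transcript NM_002230 had 3.22 ± 0.756 FPKM in SH1, 3.06 ± 1.45 FPKM in SH3 and 1.89 ± 0.229 FPKM in control. The next, NM_021991, had 3.89 ± 2.66 FPKM in SH1, 2.15 ± 2.86 FPKM in SH3 and 1.39 ± 1.23 FPKM in control. JUP summed to 11.4 ± 2.59 FPKM in SH1, 7.05 ± 0.0981 FPKM in SH3 and 5.45 ± 1.28 FPKM in control, and DESeq2 called the sum higher in SH1 than in control. PKP4 summed to 7.49 ± 1.07 FPKM in SH1, 4.49 ± 0.606 FPKM in SH3 and 7.96 ± 0.599 FPKM in control, and DESeq2 called it lower in SH3 than in control and than in SH1. The median log2 fold changes of the sums in SH1 and in SH3 against control were -0.22 and 0.25 for membrane repair, -0.32 and -0.44 for palmitoylation, 0.10 and 0.36 for the SERINC list and 0.29 and 0.01 for the desmosome, beside -0.03 in each for all tested sums.

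**Figure D4:**
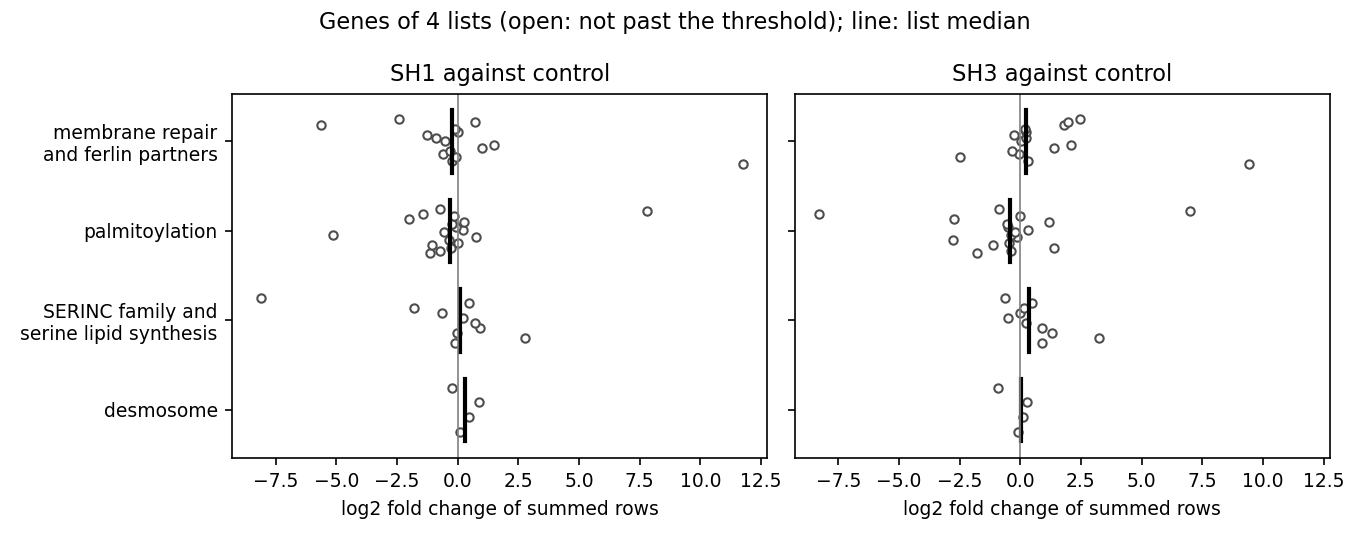
Log2 fold change of the summed listed transcripts (x axes) for the genes of 4 lists, in SH1 against control and SH3 against control. Open points are genes, none past the edgeR threshold, and vertical lines are list medians, which lie between -0.32 and 0.29 in SH1 and between -0.44 and 0.36 in SH3.

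The neighbours of the members on the chromosome, looked up after the members' values were seen were listed in part. Of the 18 nearest coding genes, 3 on each side of each member, 8 have listed transcripts, and edgeR called 0 of the 7 tested sums in any comparison. For sums at an unadjusted p under 0.05 there were also 0, and DESeq2 and limma-trend called 0 sums. edgeR and limma-trend also called 0 of the 45 neighbour transcripts tested, with 1, 3 and 2 at an unadjusted p under 0.05 in SH1 against control, SH3 against control and SH3 against SH1. DESeq2 called 1 of them in SH3 against SH1, R3HCC1L XM_011539644 near GOLGA7B, listed at 0 in SH3, with 0.970 ± 0.745 FPKM in SH1 and 0.200 ± 0.178 FPKM in control. ZFYVE27, separated from GOLGA7B by 1 gene, had 19.3 ± 1.27 FPKM in SH1, 15.7 ± 1.32 FPKM in SH3 and 18.1 ± 1.32 FPKM in control. CEP55, the gene next to MYOF, had 7.71 ± 3.36 FPKM in SH1, 11.9 ± 6.42 FPKM in SH3 and 15.4 ± 8.84 FPKM in control. The genes directly beside GOLGA7B, SFRP5 and CRTAC1, were not analysed here.

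The calls of the 3 genes held to different degrees when libraries were left out. GOLGA7B in SH1 against control and the SERINC2 sum in SH1 against control were called under 19 of 19 alternatives. SERINC2 NM_178865, on average 91.8% of the listed SERINC2 FPKM in control, was called under only 1 of 19 in the same comparison, and not in the main fit. MYOF NM_133337 in SH1 against control was called under 12 of 19, with a log2 fold change between 2.68 and 3.12 in all of them. In edgeR the call was lost without control 1, without control 2 and without each SH1 library in turn, at adjusted p between 0.0616 and 0.0812. The MYOF sum in SH1 against control was called under 15 of 19, with a log2 fold change between 1.45 and 1.68.

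**Figure D5:**
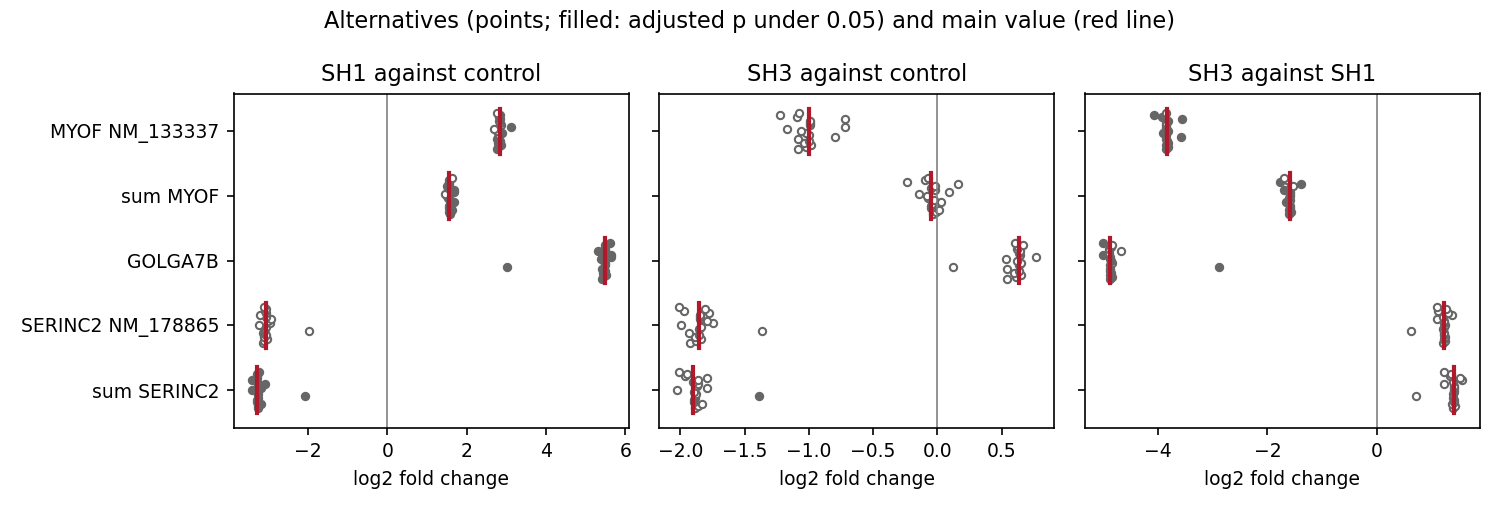
Log2 fold change (x axes) of the leading transcripts and of the MYOF and SERINC2 sums under the alternative settings (points, filled where the adjusted p is under 0.05) and as reported (red lines). For GOLGA7B in SH1 against control all 19 points are filled, the lowest being limma-trend at 3.01 on log2(FPKM + 1), and for MYOF NM_133337 12 of 19 are filled at nearly the same fold change.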

How the data were processed

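Per the file headers, the authors deposited FPKM, TPM, an estimated count and a normalized read count for each transcript and library. FPKM gave the levels, and TPM the part of each library covered by the table. The estimated counts (expected counts, 65.1% not whole) were rounded and tested. The normalized read count, a signal deposited by the authors, gave 1 factor per library (0.979 to 1.07). The submitters' processing notes name the mouse build mm10; the aligner and counter are not given in the sources used here, and transcripts and Gene IDs were read as human RefSeq. How reads shared by transcripts of 1 gene were divided, which sets the transcript values, is likewise not given.

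Counts were tested with edgeR 4.0.16 (R 4.3.3): quasi-likelihood, TMM, filterByExpr with a minimum count of 10, robust dispersions, 1 fit of 9 libraries, with Benjamini-Hochberg adjustment over all transcripts or sums and a threshold of 0.05. SE is the log2 fold change over the root of F. Bounds against 0 use 3 counts over the group at 0 and cover the counting error of that group only. The counts of the other group are taken as exact. Between 11329 and 13909 transcripts reached a count of 10, depending on the library. The script was tested on simulated data.

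Members and lists were chosen with earlier results of these data known. Named are all member transcripts, and for each list the transcripts past the threshold or else the 2 of the highest mean; genes called by DESeq2, KRT19, PAX8, CD68, PDGFRB and the chromosomal neighbours were named after their values were seen. Alternatives were DESeq2 1.42.0, limma-trend 3.58.1 on log2(FPKM + 1), DESeq2 size factors, no scaling, no filter, a mean of at least 5 CPM, only the groups compared, a replicate block, leaving out each library, and leaving out SH1 1 with control 1. The authors' factors were added after seeing the data. Sequences are from GRCh38 with GENCODE transcripts and, for the GOLGA7B start, from RefSeq GRCh38.p14.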

Additional observations from a re-analysis of the deposited data

Results flagged for a closer look

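MYOF NM_133337 was at 1.86 to 4.15 FPKM in SH3 and at 46.72 to 49.15 FPKM in SH1, against 4.61 to 8.66 FPKM in control: every SH3 library lay below and every SH1 library above all controls. The log2 fold change of SH3 against SH1 was -3.83. MYOF XM_005269694 had the same order, at 0.06 to 0.11 FPKM in SH3, 0.75 to 1.55 FPKM in SH1 and 0.13 to 0.36 FPKM in control, with a log2 fold change of SH3 against SH1 of -3.79. This contrast is the difference between the log2 fold changes of SH3 and SH1 against control, since both are set against the same controls. Its cause was not tested. edgeR called it for NM_133337 and not for XM_005269694, whose adjusted p was 0.754, and neither is independent evidence, as the members were chosen with these values known.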

How the results depend on the processing

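Of the log2 fold changes of members under all alternatives, 532 kept their direction and side of the threshold, 25 lost and 5 gained a call, and 7 turned their sign. Those that turned were near 0: MYOF XM_005269693 in SH3 against SH1 (0.11 without SH1 2, 0.04 without SH1 3, 0.11 without SH3 2) and the MYOF sum in SH3 against control (0.016 with the authors' factors, 0.028 with limma-trend, 0.09 without control 3, 0.16 without SH3 1), with ranges of -0.29 to 0.11 and -0.24 to 0.16 when 1 library was left out. The 2 transcripts called in SH1 against control became 1 with only the groups compared and 1 without SH1 1 and control 1, and 1 to 2 when 1 library was left out; MYOF NM_133337 was the one lost. The 2 called in SH3 against SH1 became 1 with only the groups compared, 1 without that pair, and 0 to 2 when 1 library was left out (0 without SH1 2). The 3 sums called in SH1 against control were 2 without that pair and 2 to 3 when 1 library was left out, MYOF being lost without the pair and without control 1, control 2 or SH1 2. The 2 sums called in SH3 against SH1 became 1 with only the groups compared, 1 without the pair, and 1 to 2 when 1 library was left out, MYOF being lost without SH1 2, SH1 3 or SH3 3. The 0 sums called in SH3 against control became 1, SERINC2, with DESeq2 and 1 with limma-trend, and stayed 0 when 1 library was left out. The cause was not tested; fits with fewer libraries have fewer degrees of freedom.

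Same-numbered libraries of different groups had correlations of their deviations of -0.279 to 0.0324, and differently numbered ones -0.103 to 0.192. The lowest is SH1 1 with control 1, the pair on which the table was selected. The check therefore cannot settle whether the numbers pair the libraries. With the replicate number as a block, 1 transcript in place of 2 was called in SH3 against SH1, GOLGA7B being lost at an adjusted p of 0.083, with a log2 fold change of -4.83. Over the whole table DESeq2 called 456 transcripts in SH1 against control where edgeR called 23, 345 where it called 5 in SH3 against control, and 354 where it called 17 in SH3 against SH1; for sums the counts were 447 and 137, 246 and 26, and 384 and 87. With a pseudocount of 0.1 in place of 1, 1 of the 3 most alike transcripts was shared for MYOF and for GOLGA7B. Low counts limit SERINC2 NM_178865 in SH1 (23 to 34.45) and GOLGA7B in control (20 to 27.71).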
